A study of Rattus norvegicus with 10 samples.

Results

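The ribosomal protein genes of the cytosolic ribosome were followed through RNA sequencing of rat prefrontal cortex. Members were the table rows whose symbol is Rpl or Rps with a number and at most a short suffix, together with Rpsa, Rplp0, Rplp1 and Rplp2, leaving out symbols with -ps and the Rps6k kinases. This gave 85 of the 16041 rows, 51 for the large and 34 for the small subunit, under 79 different symbols. Rplp2 and some other standard members, such as Rps6, were not analysed here. The libraries came from male Sprague-Dawley rats at postnatal day 91: 5 from rats that had gone through early life stress (ELS), a limited nesting paradigm from postnatal day 2 to day 9, and 5 from control rats. Each library was made from poly(A) RNA of 1 tissue sample. The labels do not tell whether rats shared a litter, and the p-values cover the spread among these samples, whatever its source. Levels are RPKM, reads scaled by the length of the gene model and by all reads of the library. Fold changes are ELS over control on the log2(RPKM + 0.1) scale, with their standard error (SE), and p-values are from limma, two-sided. Rows counted as lower or higher in mean are those with a log2 fold change below or above 0. For a few rows near 0 or of wide spread the means in RPKM differ in the other direction.

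A ribosome carries 1 copy of nearly every ribosomal protein, so cells make these proteins in matched amounts. The small subunit reads the mRNA, and the large subunit joins amino acids and holds the exit tunnel. In mammals the mRNAs of ribosomal proteins begin with a 5′ terminal oligopyrimidine (TOP) tract, a C followed by a run of C and T bases in the DNA, through which the kinase mTOR and the RNA-binding protein LARP1 control their translation. In neurons, ribosomes and ribosomal protein mRNAs are also found in dendrites and axons. In bulk tissue, fewer cells of a type and less RNA per cell cannot be told apart.

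The start sites of these genes are shown first because the TOP tract is what their mRNAs are known to share. RefSeq promoters of build GRCr8, running from 250 bases before to 50 bases after the annotated start, were matched by symbol to 61 of the 79 member symbols, which gave 62 promoters. The windows below hold the 10 bases before and the first 20 bases from the annotated start, 5′ to 3′ on the strand of the gene, and capitals mark a tract of a C followed by at least 4 pyrimidines whose C lies within 5 bases of the start. The first 5 belong to members with lower means in ELS, the next 2 to members with higher means in ELS, and the last 2 to members with lower means but no such tract.
Rplp0: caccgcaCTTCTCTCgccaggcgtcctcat
Rpl37a: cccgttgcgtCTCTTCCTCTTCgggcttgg
Rpl13: cggtgcccgatCCTTTCCgctcggccgttc
Rplp1: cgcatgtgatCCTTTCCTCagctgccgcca
Rpl35: cttcctCTTTCTCTCgaaccgggcggcctc
Rpl10: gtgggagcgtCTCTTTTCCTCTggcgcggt
Rpl12: aacatccgtCTTTTCggctttcggttcgga
Rps16: aaaatcggtcggggtggccccaagctttcc
Rpsa: ccgcgctaccctggaacgggtccgtacggc
The window of Rplp0 lies at chr12:46718371-46718400 on the minus strand, that of Rpl37a at chr9:81748081-81748110 on the plus strand, that of Rpl13 at chr19:68062504-68062533 on the plus strand, that of Rplp1 at chr8:71290853-71290882 on the minus strand and that of Rpl35 at chr3:43165902-43165931 on the minus strand. The window of Rpl10 lies at chrX:157205840-157205869 on the plus strand, that of Rpl12 at chr3:36661930-36661959 on the plus strand, that of Rps16 at chr1:92770648-92770677 on the plus strand and that of Rpsa at chr8:128728869-128728898 on the plus strand. These are GRCr8 coordinates, whereas the reads were aligned to rn6, and each window spans the end of the upstream region and the start of the first exon.

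A tract at the start was found in 37 of the 62 member promoters (59.7%), against 15.7% of all 33469 promoters and 16.6% of the 11178 promoters of genes tested. On the other strand the same search matched 4.84% of the member promoters and 19.7% of all. The share was 59.0% for the large and 60.9% for the small subunit. It was 61.5% of the 13 promoters of members with an unadjusted p under 0.05 and a lower mean in ELS, and 59.2% of the other 49. Over the whole promoter and on both strands, CCGGAAG, the core word of ETS-family factors such as GABP, stood in 30.6% of the member promoters, 8.75% of all and 15.5% of those of genes tested. AAGATGG, the core of the YY1 word, stood in 14.5% of the member promoters, 7.01% of all and 7.95% of those of genes tested. TATAAA, the TATA box, stood in 12.9% of the member promoters, 14.2% of all and 6.85% of those of genes tested. Split as above, CCGGAAG stood in 1 of the 13 and 18 of the 49 member promoters, AAGATGG in 0 and 9, and TATAAA in 2 and 6, and these differences were not tested. A match is a description of these letters, and its absence depends on where the start was annotated.

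Library totals were 18838898 to 20998749 reads in ELS and 19676642 to 22311136 reads in controls, and 71.8% to 73.7% of the reads in ELS and 71.1% to 72.4% in controls fell on the listed genes. Control replicate 4 stood apart in markers of oligodendrocytes and choroid plexus, and control replicate 3 was the highest in markers of blood and in mitochondrially encoded transcripts, as given with the marker lists.

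Levels differed widely between members although the proteins are needed in like amounts. Over the 10 libraries 15 rows averaged 100 RPKM or more, and 4 averaged under 1 RPKM. The highest row was Rpl41, the gene of the shortest ribosomal protein, at 187 ± 9.78 RPKM in ELS and 196 ± 23.2 RPKM in controls (mean ± SD, n = 5 libraries in each group, as throughout). It was followed by Rpl35, a protein at the exit of the tunnel, at 179 ± 3.56 RPKM in ELS and 193 ± 10.4 RPKM in controls. Of the small subunit, 1 row of Rps27a (ENSRNOG00000034246), whose product is made as a fusion with ubiquitin, led with 142 ± 2.45 RPKM in ELS and 158 ± 10.02 RPKM in controls. At the other end stood genes that every cell uses. Rps19, a small-subunit gene mutated in Diamond-Blackfan anaemia in humans, had 43 reads in all 10 libraries together, Rpl35a had 21 and Rpl38 had 19. A further row of Rpl21 (ENSRNOG00000029410) had 22. These 4 rows did not reach 0.5 RPKM in 5 libraries and were not tested, and their values cannot stand for the level of the mRNA. The 81 rows tested had 149 to 46160 reads over the 10 libraries, with a median of 5196.

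Ribosomal protein genes had slightly lower means in ELS in both subunits, and no single gene passed the adjusted test. Of the 81 rows tested, 72 had a lower mean in ELS, 43 of 48 in the large and 29 of 33 in the small subunit, while 49.4% of the 14642 genes tested had a log2 fold change under 0. The median log2 fold change was -0.09 in the large and -0.10 in the small subunit, against 0.0037 over all genes. The median SE of a member was 0.06, and 55 of the 81 fold changes lay between -0.15 and 0. An adjusted p under 0.05 was reached by 0 members, as by 0% of all genes (limma, Benjamini-Hochberg adjustment over all 14642 genes). The members' adjusted p-values ran from 0.133 to 0.994. At an unadjusted p under 0.05, 18 members were lower, 11 of the large and 7 of the small subunit, which is 22.2% of the members against 10.3% of all genes. In the higher direction 1 member was counted, against 10.1% of all genes. All 5 ELS libraries lay below all 5 control libraries in 4 members (4.94%), against 2.6% of all genes, and above them in 0 members, against 3.08% of all genes.

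**Figure D1:**
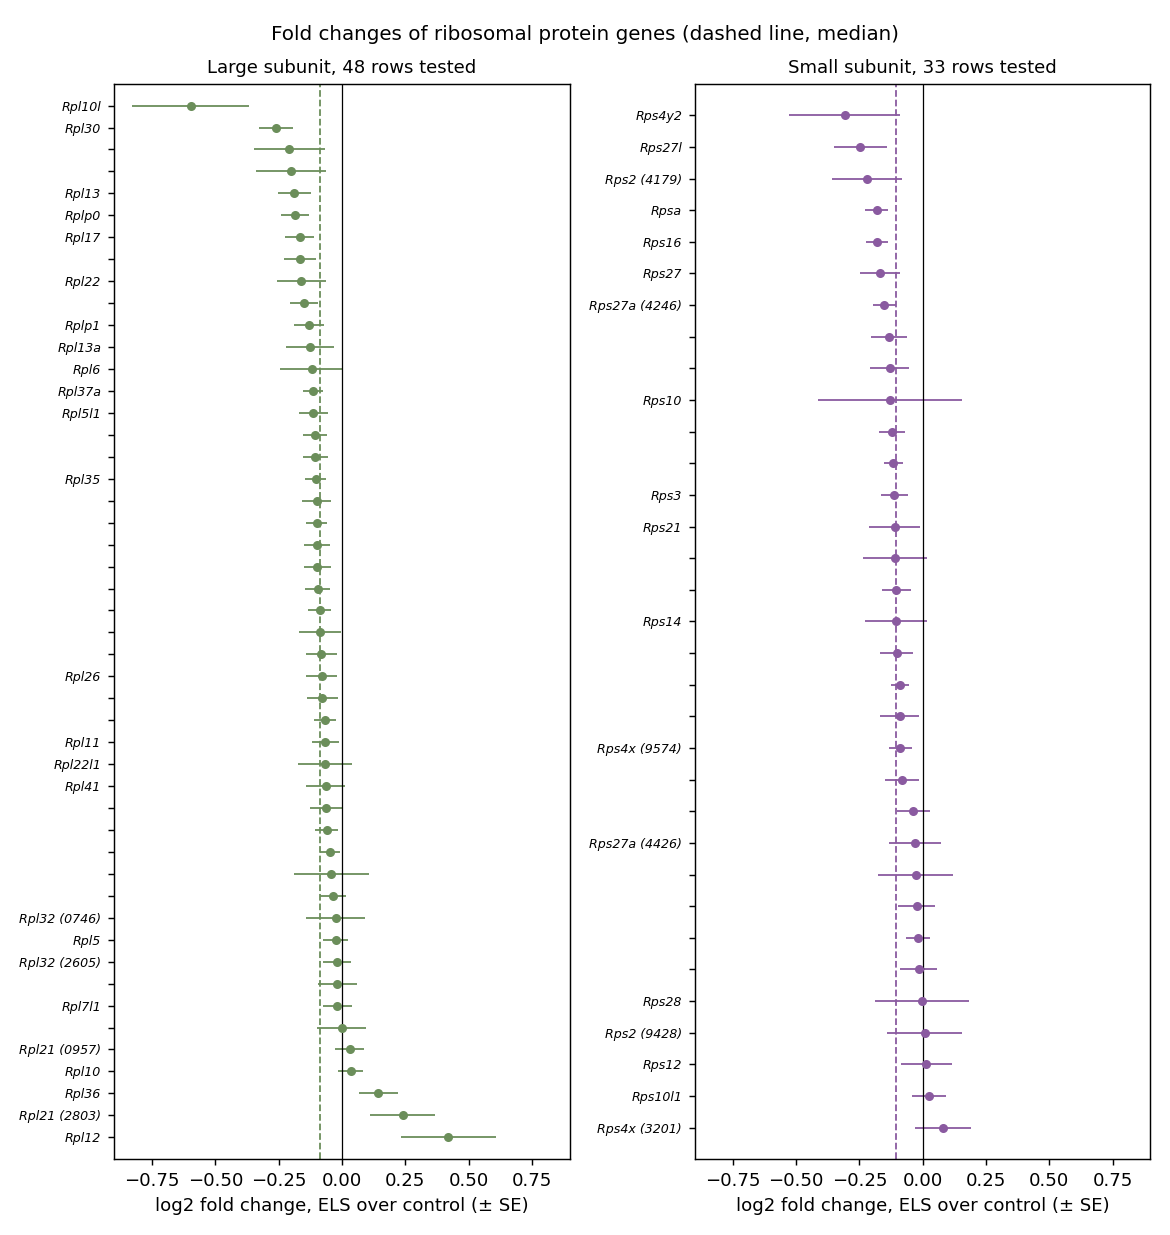
Log2 fold change of each tested row, ELS over control, with its SE, for the 48 large-subunit rows (left) and the 33 small-subunit rows (right). Rows described by name are labelled, and those that share a symbol carry the last digits of their identifier in brackets. Most points lie left of 0, with medians (dashed) of -0.09 and -0.10. Errors are mostly wider at low level, with a median SE of 0.13 under 10 RPKM and 0.05 at 50 RPKM or more. The widest, 0.28, is that of Rps10, at a mean of 12.2 RPKM.

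Among small-subunit genes those with the lowest p-values included Rps16, Rpsa and 1 row of Rps27a. Rps16 (ENSRNOG00000019578), whose C-terminal tail reaches the tRNA in the P site, had 51.3, 51.5, 51.6, 48.4 and 51.0 RPKM in ELS replicates 1 to 5, against 55.4, 57.5, 63.2, 56.7 and 55.0 RPKM in control replicates 1 to 5. Every ELS library lay below every control library, with a log2 fold change of -0.18 ± 0.04 (unadjusted p = 0.00210, limma adjusted p = 0.133). Rpsa (ENSRNOG00000018645), the ribosomal form of the laminin receptor precursor, had 134, 121, 128, 131 and 125 RPKM in ELS replicates 1 to 5, against 142, 134, 147, 153 and 148 RPKM in control replicates 1 to 5. The lowest control library and the highest ELS library were less than 1 RPKM apart, and the log2 fold change was -0.18 ± 0.04 (unadjusted p = 0.00212, limma adjusted p = 0.133).

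The higher row of Rps27a had 141, 139, 141, 141 and 146 RPKM in ELS replicates 1 to 5, against 149.7, 156, 168, 168 and 146 RPKM in control replicates 1 to 5. Its groups touched without overlapping, and the ELS libraries were far closer to each other than the controls were, with a log2 fold change of -0.15 ± 0.05 (limma adjusted p = 0.138). The other row of that symbol (ENSRNOG00000004426) had 12.8 ± 1.10 RPKM in ELS and 13.2 ± 1.97 RPKM in controls and a log2 fold change of -0.03 ± 0.10.

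Rps3 and Rps14 are small-subunit genes with known roles outside the ribosome or in disease. Rps3, which lines the mRNA entry channel and is also known as a DNA repair protein, had 116 ± 4.28 RPKM in ELS and 126 ± 9.37 RPKM in controls (log2 fold change -0.11 ± 0.05). Rps14, a gene of the region deleted in the 5q- syndrome in humans, was listed at only 6.32 ± 1.08 RPKM in ELS and 6.74 ± 0.674 RPKM in controls (log2 fold change -0.10 ± 0.12). Higher means in ELS were found on 4 rows. Rps12 had 13.4 ± 1.94 RPKM in ELS and 13.2 ± 0.981 RPKM in controls (log2 fold change 0.02 ± 0.10), and Rps10l1, which the RefSeq table lists as a pseudogene, had 51.3 ± 1.36 RPKM in ELS and 50.6 ± 5.499 RPKM in controls (log2 fold change 0.03 ± 0.07), and both were below 0 with upper quartile scaling. The other 2 rows were copies of Rps2 and Rps4x, described with the copies. None of these genes passed the adjusted test.

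In the large subunit the lowest p-values belonged to Rpl30, Rplp0, Rpl17, Rpl37a and Rpl13. Rpl30 (ENSRNOG00000032825), a small protein whose yeast form represses the splicing of its own transcript, had 102, 115, 108, 97.8 and 105 RPKM in ELS replicates 1 to 5, against 130.1, 133, 139, 123 and 109 RPKM in control replicates 1 to 5. Control replicate 5 lay within the ELS range while the other 4 controls lay above all ELS libraries, and the log2 fold change was -0.26 ± 0.07 (unadjusted p = 0.00271, limma adjusted p = 0.133). Rplp0 (ENSRNOG00000001148), the base of the stalk that recruits elongation factors, had 141, 140.5, 135, 136 and 135 RPKM in ELS replicates 1 to 5, against 141, 155, 164, 174 and 150.0 RPKM in control replicates 1 to 5. Control replicate 1 stood at the ELS level and control replicate 4 was the highest, with a log2 fold change of -0.19 ± 0.05 (limma adjusted p = 0.135). Its stalk partner Rplp1 was at 112 ± 7.27 RPKM in ELS and 123 ± 8.34 RPKM in controls (log2 fold change -0.13 ± 0.06, limma adjusted p = 0.247).

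Rpl37a (ENSRNOG00000023385) had 33.3, 33.3, 35.0, 33.5 and 35.0 RPKM in ELS replicates 1 to 5, against 36.3, 36.4, 39.7, 35.8 and 36.0 RPKM in control replicates 1 to 5. It is the large-subunit gene in which no ELS library reached a control library, although its log2 fold change was only -0.11 ± 0.04 (limma adjusted p = 0.168). Rpl17, a protein that lines the exit tunnel, was at 16.7 ± 1.19 RPKM in ELS and 18.7 ± 0.978 RPKM in controls (log2 fold change -0.17 ± 0.06), and Rpl13 was at 18.2 ± 1.37 RPKM in ELS and 20.8 ± 1.57 RPKM in controls (log2 fold change -0.19 ± 0.07). Of the most abundant rows, Rpl35 had a log2 fold change of -0.10 ± 0.04 and Rpl41 one of -0.06 ± 0.08.

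**Figure D2:**
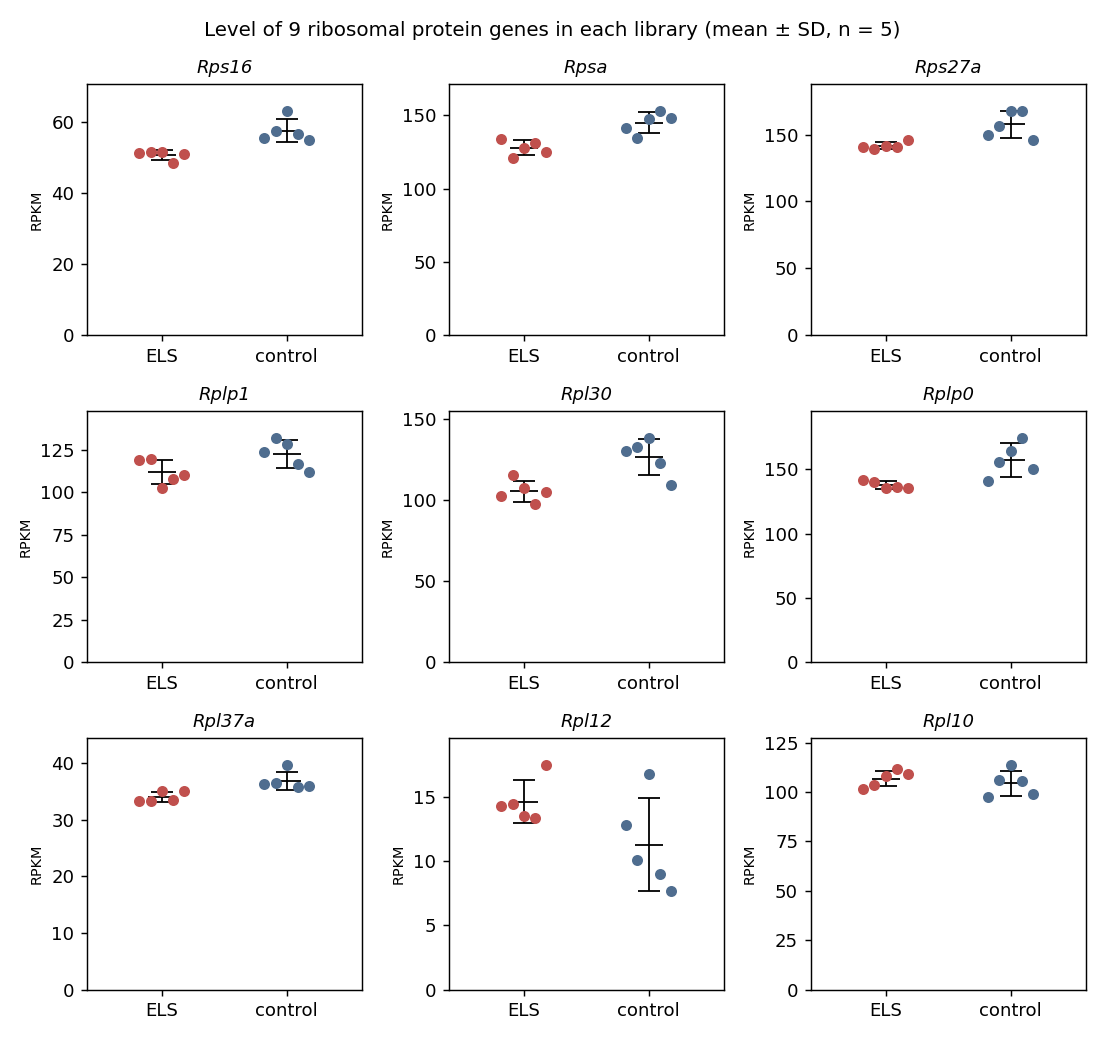
Level in RPKM of 9 members, each point a library, ELS left and control right, with mean ± SD (n = 5). In Rps16, Rpsa, Rps27a (the row of higher level) and Rpl37a all ELS points lie below all control points, whereas Rpl12 has its higher mean in ELS and Rpl10 overlaps fully.

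Of the large-subunit rows tested 5 had a higher mean in ELS, among them Rpl12, Rpl36 and Rpl10. Rpl12 (ENSRNOG00000016220), part of the stalk base, was the 1 member with an unadjusted p under 0.05 and a higher mean in ELS, with 14.3, 14.4, 13.5, 13.3 and 17.5 RPKM in ELS replicates 1 to 5, against 12.8, 10.1, 16.8, 9.03 and 7.63 RPKM in control replicates 1 to 5. ELS replicate 5 was the highest library, control replicate 3 lay above the other 4 ELS libraries and the other 4 controls lay below every ELS library, and the log2 fold change was 0.42 ± 0.19 (unadjusted p = 0.0471, limma adjusted p = 0.239). Rpl36 was at 21.1 ± 2.11 RPKM in ELS and 19.1 ± 1.599 RPKM in controls (log2 fold change 0.14 ± 0.08). Rpl10, which joins the large subunit late in its assembly, was at 107 ± 4.02 RPKM in ELS and 104 ± 6.46 RPKM in controls (log2 fold change 0.03 ± 0.05). The proteins of Rpl5 and Rpl11 bind the 5S rRNA and, when free, the p53 regulator MDM2. Rpl5 was at 92.3 ± 1.78 RPKM in ELS and 94.1 ± 6.57 RPKM in controls (log2 fold change -0.02 ± 0.05), and Rpl11 at 16.7 ± 0.762 RPKM in ELS and 17.5 ± 1.09 RPKM in controls (log2 fold change -0.07 ± 0.05). Rpl13a, known in human myeloid cells for a role in silencing inflammatory mRNAs, was listed at 3.14 ± 0.193 RPKM in ELS and 3.45 ± 0.435 RPKM in controls (log2 fold change -0.13 ± 0.09). None of these genes passed the adjusted test.

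The large and small subunits followed each other from library to library. A library's score is the mean over members of the log2 level centred on each member's mean over the 10 libraries. The large-subunit score was -0.06, -0.05, -0.01, -0.07 and -0.01 in ELS replicates 1 to 5, against -0.01, 0.05, 0.14, 0.09 and -0.06 in control replicates 1 to 5. The small-subunit score was -0.05, -0.02, -0.06, -0.12 and 0.01 in ELS replicates 1 to 5, against -0.05, 0.08, 0.15, 0.10 and -0.05 in control replicates 1 to 5. In both subunits control replicates 2, 3 and 4 stood above all ELS libraries, and control replicates 1 and 5 lay within the ELS range. The same score over all genes tested was -0.02 ± 0.02 in ELS and 0.02 ± 0.03 in controls. It was highest in control replicate 2, at 0.06, a value close to that library's 0.06 over all members, whereas in control replicate 3 it was 0.0017 and in control replicate 4 -0.01. The controls were thus the more spread group: the score over all members was -0.04 ± 0.03 in ELS and 0.04 ± 0.08 in controls. Control replicate 3 held the highest value of 36 of the 85 rows, control replicate 4 that of 19 and control replicate 2 that of 12.

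**Figure D3:**
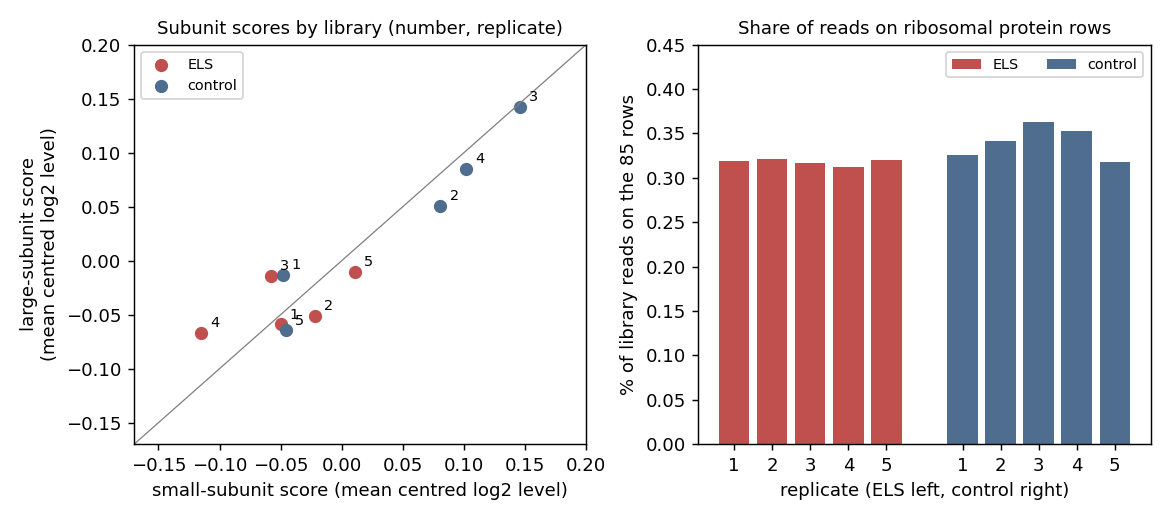
Left, large-subunit score against small-subunit score for each library, with the replicate number and the line of equality. Right, percent of all reads of a library that fell on the 85 rows. Control replicates 2, 3 and 4 stand apart at the upper right and hold the highest shares of reads.

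Summed over rows, the large subunit had 2645 ± 25.4 RPKM in ELS and 2813 ± 159 RPKM in controls, and the small subunit 1385 ± 35.0 RPKM in ELS and 1499 ± 82.9 RPKM in controls. The ratio of the large to the small sum was 1.91 ± 0.0369 in ELS and 1.88 ± 0.0312 in controls, and the ranges, 1.88 to 1.97 in ELS and 1.84 to 1.91 in controls, overlapped. The median log2 fold changes of the subunits differed by 0.02, less than the SD between libraries of a group in the same difference of scores (0.0368 in ELS, 0.0253 in controls). The 85 rows took 0.318% ± 0.00373 of a library's reads in ELS and 0.340% ± 0.0187 in controls. Leaving out control replicate 3 brought the medians to -0.06 in the large and -0.07 in the small subunit, with 39 and 26 rows lower in mean and 12 members lower at an unadjusted p under 0.05 (14.8%), against 10.1% of all genes in that setting.

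**Figure D4:**
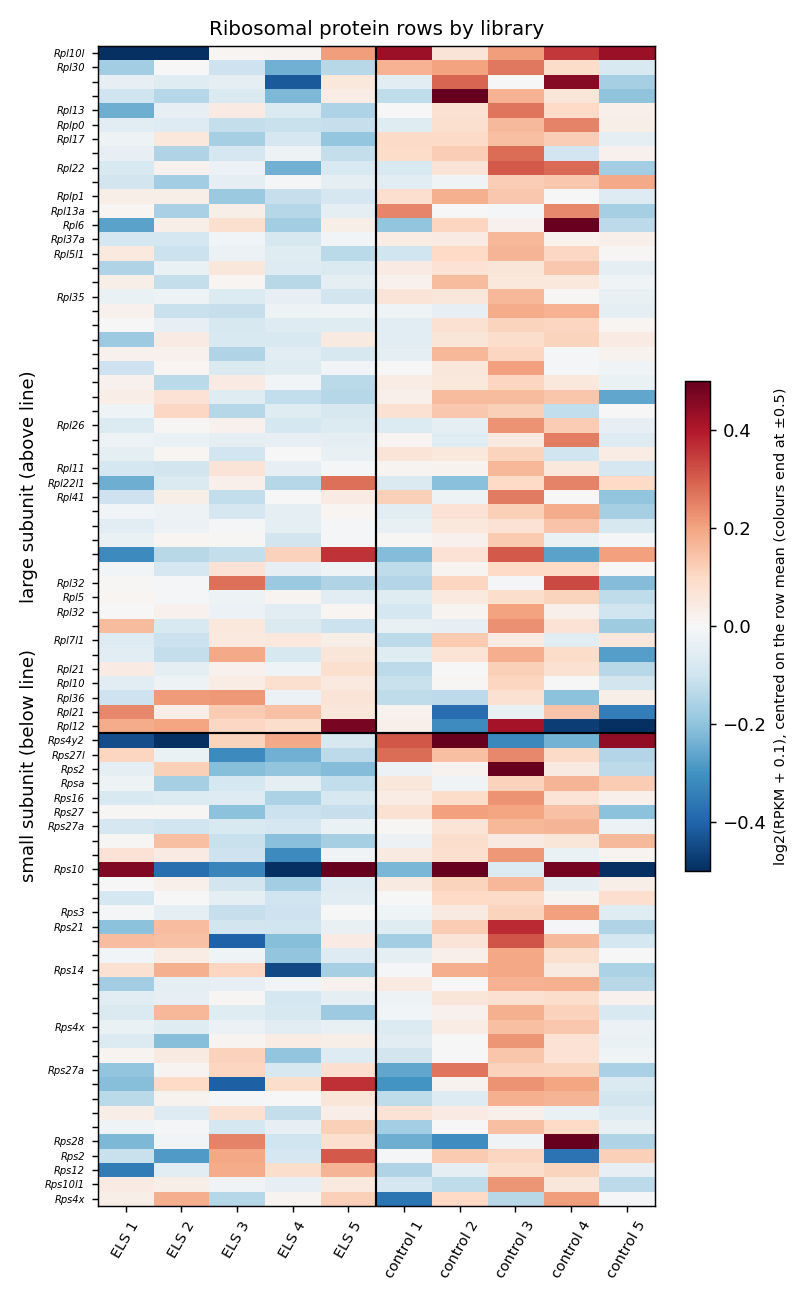
Level of the 81 tested rows in each library on the log2(RPKM + 0.1) scale, centred on the row mean, ELS left of the line and control right, large subunit above the line and small subunit below. Red columns in control replicates 2, 3 and 4 run through both subunits, and single rows such as Rps10 follow an order of their own.

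Several proteins were split over more than 1 row, and ribosomal protein genes are known for many near-identical copies. Among the members 5 symbols stood on 11 rows. Rps4x had a row at 85.2 ± 0.866 RPKM in ELS and 90.8 ± 6.06 RPKM in controls (ENSRNOG00000029574) and another at 3.88 ± 0.332 RPKM in ELS and 3.69 ± 0.563 RPKM in controls (ENSRNOG00000003201), with log2 fold changes of -0.09 and 0.08. Rpl21 had 58.3 ± 2.07 RPKM in ELS and 57.2 ± 4.67 RPKM in controls on its leading row and 1.43 ± 0.0884 RPKM in ELS and 1.21 ± 0.206 RPKM in controls on a minor one, with log2 fold changes of 0.03 and 0.24. The leading row of Rpl32 (ENSRNOG00000032605) had a log2 fold change of -0.02 and the other one of -0.02. For Rps2 they were -0.22 (ENSRNOG00000014179) and 0.01, the second being below 0 with upper quartile scaling. The sources used here do not say how reads shared between copies were counted, so the level of a single row is uncertain.

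Rows with -ps in the symbol, which lie outside the member rule, carried large shares of some proteins. The row Rps21-ps1 was at 122 ± 9.60 RPKM in ELS and 139 ± 11.6 RPKM in controls, against 16.6 ± 1.59 RPKM in ELS and 18.1 ± 2.68 RPKM in controls for Rps21 itself, and Rpl26-ps2 at 69.5 ± 4.34 RPKM in ELS and 79.3 ± 4.80 RPKM in controls, against 25.98 ± 0.907 RPKM in ELS and 27.5 ± 2.53 RPKM in controls for Rpl26. With all rows of a protein summed, Rps21 came to 138 ± 10.8 RPKM in ELS and 157 ± 13.5 RPKM in controls, Rpl26 to 102 ± 4.56 RPKM in ELS and 113 ± 7.10 RPKM in controls, and Rpl6 to 72.0 ± 2.50 RPKM in ELS and 76.2 ± 8.28 RPKM in controls, sums chosen after the values were seen. Such sums could be made for 12 proteins, of which 9 were lower and 3 higher in mean in ELS. The higher ones were Rpl12 at 15.0 ± 1.52 RPKM in ELS and 11.8 ± 3.72 RPKM in controls, Rpl21 at 59.8 ± 2.19 RPKM in ELS and 58.7 ± 4.86 RPKM in controls and Rps2 at 25.8 ± 2.32 RPKM in ELS and 25.8 ± 6.56 RPKM in controls, so that the difference on the leading row of Rps2 was not seen in the sum. That sum includes Rps2-ps2, at 4.64 to 9.64 RPKM in ELS. In controls Rps2-ps2 was at 0 to 8.43 RPKM, with 0 in replicate 2 and 0.255 RPKM in replicate 5. Of the 10 such -ps rows 8 were lower in ELS (median log2 fold change -0.08). With 1 row a symbol and no copies, a setting added with the data in view, 61 of 66 tested rows were lower in ELS and the median over both subunits was -0.10. Of the 15 copies and rows of lower level tested, 11 were lower in ELS (median -0.04).

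The listed paralogs of standard proteins had low to middling levels. Rpl10l, the paralog of Rpl10 known from the testis, had 0.953, 0.744, 1.63, 1.63 and 1.88 RPKM in ELS replicates 1 to 5, against 2.21, 1.70, 1.88, 2.09 and 2.22 RPKM in control replicates 1 to 5. The lowest values were in ELS and the groups overlapped, with a log2 fold change of -0.60 ± 0.23 (unadjusted p = 0.0253, limma adjusted p = 0.190) on 223 reads in all. Rps27l, a p53-responsive paralog of Rps27 in humans, was at 3.84 ± 0.462 RPKM in ELS and 4.57 ± 0.518 RPKM in controls (log2 fold change -0.25 ± 0.10, limma adjusted p = 0.223). Rpl22l1, the paralog of Rpl22, was at 24.3 ± 3.47 RPKM in ELS and 25.4 ± 3.08 RPKM in controls (log2 fold change -0.07 ± 0.11), Rpl7l1 at 23.4 ± 1.19 RPKM in ELS and 23.8 ± 1.66 RPKM in controls (log2 fold change -0.02 ± 0.06), Rpl5l1 at 21.7 ± 1.11 RPKM in ELS and 23.5 ± 1.69 RPKM in controls (log2 fold change -0.11 ± 0.06) and Rps4y2 at 1.25 ± 0.299 RPKM in ELS and 1.59 ± 0.453 RPKM in controls (log2 fold change -0.31 ± 0.22). All 6 had lower means in ELS and 0 passed the adjusted test. The related row Rpl36al, outside the member rule, was at 28.9 ± 2.89 RPKM in ELS and 38.1 ± 3.89 RPKM in controls (log2 fold change -0.39 ± 0.09, limma adjusted p = 0.133).

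At high levels the direction of the members was not that of other genes of like level. Among genes averaging 50 RPKM or more, 34 of 37 members were lower in ELS (median log2 fold change -0.10), while 29.9% of all 1114 such genes were lower (median 0.08). Between 10 and 50 RPKM 24 of 27 members were lower (median -0.08), against 35.8% of all genes (median 0.04). Under 10 RPKM 14 of 17 tested members were lower (median -0.04), against 59.3% of all genes (median -0.05). Of the 57 tested members with a gene model under 1000 bases 50 were lower (median -0.10), against 56.5% of all genes of that length (median -0.04). These are descriptions over genes, not a test of the list.

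**Figure D5:**
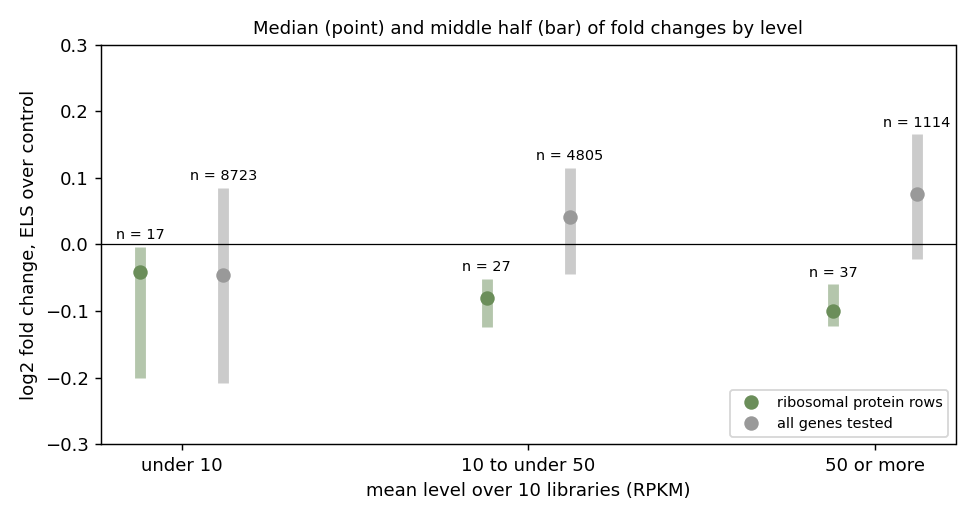
Median (point) and interquartile range (bar) of the log2 fold change, ELS over control, by mean level, for the ribosomal protein rows and for all genes tested. In the bin of 50 RPKM or more the members' median is -0.10 and that of all genes is 0.08.

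Of other gene lists of large complexes, 2 gave medians above 0, 1 a median near that of all genes, and mitochondrially encoded transcripts a median below 0. Of the 71 mitochondrial ribosomal protein genes 20 were lower in ELS, at a median log2 fold change of 0.04. Of the 37 tested proteasome subunit genes 5 were lower (median 0.08). Of the 80 tested nuclear genes of oxidative phosphorylation 35 were lower, with a median of 0.01, against 0.0037 over all genes. Of the 12 mitochondrially encoded transcripts 11 were lower, with a median of -0.13. None of these genes passed the adjusted test, and the difference between the lists was not tested.

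The wider translation machinery was described by lists of its factors, chosen with earlier results of these data known. Elongation factors had 5 of 10 lower means in ELS (median log2 fold change -0.01). At an unadjusted p under 0.05, where 10.1% of all genes were higher and 10.3% lower, 2 were higher and 2 lower. The lower ones, named after their values were seen, were Eef1a1, the widely expressed paralog of Eef1a2, at 179.7 ± 5.51 RPKM in ELS and 194 ± 9.92 RPKM in controls (log2 fold change -0.11 ± 0.04), and Eef1g, a subunit of the exchange factor, at 86.9 ± 2.54 RPKM in ELS and 92.3 ± 2.80 RPKM in controls (log2 fold change -0.09 ± 0.04). Eef1a2, the elongation factor form of neurons and muscle, was at 319 ± 19.2 RPKM in ELS and 288 ± 14.5 RPKM in controls (log2 fold change 0.14 ± 0.05), and Eef2, the translocase, at 308 ± 9.62 RPKM in ELS and 307 ± 11.9 RPKM in controls (log2 fold change 0.01 ± 0.04). Initiation factors had 13 of 34 lower means (median 0.04), with 6 higher and 0 lower at an unadjusted p under 0.05, where 10.1% of all genes were higher. The helicase gene Eif4a2 was at 203 ± 9.85 RPKM in ELS and 181 ± 4.19 RPKM in controls (log2 fold change 0.16 ± 0.04), and Eif6, which keeps the subunits apart until the large one is mature, at 26.5 ± 0.683 RPKM in ELS and 24.4 ± 0.281 RPKM in controls (log2 fold change 0.12 ± 0.03). In both all ELS libraries lay above all control libraries.

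Ribosome assembly genes had 16 of 55 lower means in ELS (median 0.05), with 7 of 55 higher at an unadjusted p under 0.05, a share near the 10.1% of all genes, and 1 lower. The helicase gene Ddx10 was at 6.59 ± 0.693 RPKM in ELS and 5.16 ± 0.435 RPKM in controls (log2 fold change 0.35 ± 0.09), Wdr12, of the complex that processes the large-subunit rRNA, at 15.8 ± 0.958 RPKM in ELS and 13.8 ± 0.699 RPKM in controls (log2 fold change 0.20 ± 0.05), and Ncl, nucleolin, at 41.3 ± 2.06 RPKM in ELS and 39.5 ± 1.26 RPKM in controls (log2 fold change 0.06 ± 0.04). RNA polymerase I and its factors had 6 of 14 lower means (median 0.04). At an unadjusted p under 0.05, where 10.1% of all genes were higher and 10.3% lower, 0 were higher and 1 was lower. That gene was Taf1d, a subunit of its promoter selectivity factor, at 3.43 ± 0.343 RPKM in ELS and 4.22 ± 0.436 RPKM in controls (log2 fold change -0.29 ± 0.09), while Ubtf, its upstream binding factor, was at 20.3 ± 0.792 RPKM in ELS and 18.9 ± 1.02 RPKM in controls. Termination and recycling genes had 6 of 11 lower means (median -0.09). At that p, with the same shares of all genes, 1 was higher and 0 were lower. Denr, a recycling factor, was at 57.7 ± 3.82 RPKM in ELS and 51.5 ± 4.88 RPKM in controls, and Nemf, of the quality control of stalled ribosomes, at 4.23 ± 0.180 RPKM in ELS and 5.03 ± 0.868 RPKM in controls. Genes of translation control by mTOR had 4 of 13 lower means (median 0.06). At an unadjusted p under 0.05, where 10.1% of all genes were higher and 10.3% lower, 3 were higher and 0 lower. The difference of these few genes from all genes was not tested. Among the higher ones was Mtor, at 14.0 ± 0.496 RPKM in ELS and 12.8 ± 0.640 RPKM in controls. Another was Tsc2, a brake on mTOR, at 30.2 ± 0.806 RPKM in ELS and 26.7 ± 0.347 RPKM in controls. Rack1, a scaffold on the small subunit outside the member rule, was at 38.1 ± 0.627 RPKM in ELS and 40.2 ± 2.49 RPKM in controls (log2 fold change -0.08 ± 0.05). The adjusted test was passed by 0 genes of these lists.

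Markers of several other cell types differed in mean between the groups, with 0 past the adjusted test (limma). Some were highest in the libraries with the highest ribosomal protein scores. Their part in the result was not tested. The summed level of 8 oligodendrocyte markers was 847 to 1105 RPKM in ELS and 1125 to 2309 RPKM in controls, with all 8 lower in mean, and its highest library was control replicate 4. Astrocyte markers, 7 of 7 lower in mean, summed to 804 to 886 RPKM in ELS and 949.8 to 1159 RPKM in controls. Microglia markers, 8 of 8 lower, summed to 88.2 to 106 RPKM in ELS and 101 to 119.6 RPKM in controls. Erythroid markers, with 4 of 4 rows lower in mean, summed to 422, 438, 214, 227 and 349 RPKM in ELS replicates 1 to 5, against 544, 848, 981, 661 and 412 RPKM in control replicates 1 to 5. Control replicates 2, 3 and 4, the libraries with the highest ribosomal protein scores, were also the 3 highest for erythroid and for astrocyte markers. Astrocyte sums were 968, 1018 and 1159 RPKM in these libraries, followed by 953 RPKM in control replicate 5. For oligodendrocyte and microglia markers control replicate 4 was the highest and control replicate 3 the next, but control replicate 2 did not follow. Endothelial markers showed little difference, with 4 of 4 log2 fold changes between -0.054 and -0.0012. Flt1 was at 8.67 RPKM in ELS and 8.65 RPKM in controls. Endothelial markers summed to 26.4 to 32.7 RPKM in ELS and 23.0 to 33.6 RPKM in controls.

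Neuronal markers were present at high level and mostly higher in mean. Excitatory markers, 0 of 6 lower in mean, summed to 1267 to 1456 RPKM in ELS and 1124 to 1493 RPKM in controls. Inhibitory markers, 0 of 6 lower, summed to 339 to 383 RPKM in ELS and 193 to 367 RPKM in controls. General neuronal markers, 1 of 5 lower, summed to 1359.5 to 1562 RPKM in ELS and 1189 to 1366 RPKM in controls. The lower one, Map2, had the largest change of the 5, with a log2 fold change of -0.53 ± 0.13 (limma adjusted p = 0.133). It was at 93.2 ± 22.8 RPKM in ELS and 132 ± 4.18 RPKM in controls. ELS replicate 2 stood at 134 RPKM, near the controls, and the other ELS libraries at 78.7 to 86.7 RPKM. None of these markers was at 0 in any library. The choroid plexus marker Ttr, the 1 of its 4 markers found in the table, was at 0 to 0.994 RPKM in ELS and at 0.194 to 31.1 RPKM in controls, with the highest value in control replicate 4. Without control replicate 4 the median log2 fold change of the members was -0.08 in both subunits, and without both control replicate 4 and ELS replicate 2, the smallest library (chosen with the data in view), -0.09 in the large and -0.08 in the small subunit. In that last setting 2 members passed an adjusted p under 0.05 (limma), among them Rpl30 with a log2 fold change of -0.30 (limma adjusted p = 0.0324), where 7.44% of all genes passed. Without ELS replicate 2 alone 0 members passed, where 3.03% of all genes did. Mitochondrially encoded transcripts, 11 of 12 lower in mean, summed to 57721 to 64261 RPKM in ELS and 62403 to 74469.5 RPKM in controls, the highest being control replicate 3.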

How the data were processed

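Poly(A) RNA of prefrontal cortex was sequenced, 1 library for each of 5 ELS and 5 control rats. The authors deposited 1 table of 16041 Ensembl genes with values read here as RPKM from their steps; whether RPKM or FPKM is meant is not stated. Per the submitters' processing notes, STAR, featureCounts and the build rn6 were used; the sources used here give no versions, strand setting, treatment of reads with several matches or filter on the listed genes. The steps between low values gave back the whole reads, the lengths of the gene models and the totals of the libraries (16015 genes, tolerance 0.002 reads), and 0 columns belonged to other samples.

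A gene entered the test if 5 or more libraries had 0.5 RPKM or above (14642 genes), and the test was limma 3.58.1 in R 4.3.3 on log2(RPKM + 0.1), with a mean-variance trend, robust moderation and Benjamini-Hochberg adjustment over all of them at 0.05. The fit was tested on simulated data with known changes larger than those of nearly all members. That test does not bear on changes as small as theirs. Alternatives were other pseudocounts, filters, scalings, limma-voom on the recovered reads, a replicate block and leaving out libraries. Members and lists were chosen with earlier results of these data known. Members given in full were the 5 lowest p in the lower and 3 in the higher direction for each subunit, the 3 highest and 2 lowest in level, Rpsa and the stalk genes, listed paralogs and genes of known other roles, and rows sharing a symbol; of other lists, the lowest p and highest level. Some members and genes that this rule names are not reported here. Counting weighs most on the precision of rows with few reads, and its share in the spread of the other rows was not measured.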

Additional observations from a re-analysis of the deposited data

Results flagged for a closer look

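In 5 of the 98 groups of 5 libraries examined, 1 library stood so far from the others that its gap to the nearest exceeded 0.71 of the range; chance gives about 1 in 20. Rps16 was at 48.4 RPKM in ELS replicate 4, with the next at 51.0 RPKM. Rpl12 was at 17.5 RPKM in ELS replicate 5, with the next at 14.4 RPKM. Rpl37a was at 39.7 RPKM in control replicate 3, with the next at 36.4 RPKM, and the row ENSRNOG00000014179 of Rps2 at 25.9 RPKM in the same library, with the next at 17.1 RPKM. Rpl17 was at 17.04 RPKM in control replicate 5, with the next at 18.8 RPKM.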

How the results depend on the processing

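Under the 20 alternatives the median log2 fold change of both subunits stayed below 0. When each library was left out in turn, it ran from -0.109 to -0.0638 in the large and from -0.118 to -0.0683 in the small subunit, their difference from -0.0024 to 0.0232, the rows lower in mean from 39 to 43 and from 25 to 31, and the members lower at an unadjusted p under 0.05 from 12 to 23 (7.8% to 11.2% of all genes), with 0 to 2 higher (6.81% to 11.5% of all genes) and 0 past the adjusted threshold (0% to 3.03% of all genes). With upper quartile scaling 28 members were lower at that p, where 12.7% of all genes were, and 0 were higher, where 7.13% of all genes were. The number of higher members was also 0 with median of ratios scaling (9.58% of all genes) and with the replicate block (7.5% of all genes). The count past the adjusted threshold was 2 without both control replicate 4 and ELS replicate 2. The cause was not tested. Correlations of deviations between libraries of the same replicate number ran from -0.082 to 0.066, and 3 of 10 libraries correlated best with their own number. These values show no clear pairing by number, and a shared litter was not tested. The replicate block left 15 members lower at that p, with 9.61% of all genes. Of 39 named members tested, 30 kept the sign of their fold change under all 18 alternatives run for single genes, and 9 with values near 0 did not. With upper quartile scaling the log2 fold change was -0.0114 for Rps12, -0.0164 for Rps2 (ENSRNOG00000059428) and -0.0008 for Rps10l1. Without control replicate 4 and ELS replicate 2 it was 0.0529 for Rpl32 (ENSRNOG00000010746), -0.0103 for that row of Rps2 and 0.0688 for Rpl21 (ENSRNOG00000000957). With 1 library left out, it ran from -0.0294 to 0.105 for Rps12, from -0.0965 to 0.0544 for that row of Rpl32 and from -0.047 to 0.0278 for the leading one, from -0.0827 to 0.0811 for Rps2, from -0.0041 to 0.0843 for Rps10l1, from -0.0526 to 0.0129 for Rpl7l1, from -0.0595 to 0.0003 for Rpl5 and from -0.098 to 0.0336 for Rps27a (ENSRNOG00000004426), and reached -0.0007 for that row of Rpl21. Reads limit the rows under 1 RPKM, which were not tested. They also limit tested rows of few reads, such as Rpl21 (ENSRNOG00000032803) with 11 to 18 reads in a library and Rpl10l with 9 to 30.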

Other observations

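Rps10, a small-subunit gene picked out because of its values, had 16.01, 8.90, 9.20, 7.48 and 17.1 RPKM in ELS replicates 1 to 5, against 9.89, 18.05, 11.1, 16.2 and 8.20 RPKM in control replicates 1 to 5. The values formed a low set of at most 11.1 RPKM and a high set of at least 16.01 RPKM, and each set held libraries of both groups. Its log2 fold change was -0.13 ± 0.28 (limma adjusted p = 0.828). The row Rps10l1 had 52.3, 51.8, 50.2, 49.4 and 52.5 RPKM in ELS replicates 1 to 5, against 47.9, 46.5, 59.2, 52.8 and 46.3 RPKM in control replicates 1 to 5, without such sets. Rps28, picked out likewise, was at 10.3 RPKM in control replicate 4 and at 4.95 to 7.34 RPKM in the other 9 libraries.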
